A study of Mus musculus with 12 samples.

Results

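The collagen genes were taken as all genes whose symbol in the array's annotation reads Col, a number, a, and a number, such as Col4a1. The annotation held 44 such symbols. One of these genes, Col7a1, has only a row that also names the microRNA gene Mir711 and was not used, which left 43 collagen genes of the 30827 genes that had a row of their own. Each of the 43 was measured by exactly 1 row, a transcript cluster, that is, a group of probes along a transcript summarised to 1 value.

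Mouse ear skin endothelium was sorted into 4 populations with 3 arrays each: lymphatic endothelial cells (LEC) of capillaries (cap LEC), of pre-collecting vessels (pre-col LEC) and of collecting vessels (col LEC), and blood endothelial cells (BEC). All 4 groups came from C57BL6 mice that carry the lymphatic reporter Prox1-GFP, Tg(Prox1-EGFP)KY221Gsat, in which Prox1 regulatory sequence drives a green fluorescent protein. The age is given both as adult and as 5 weeks. After capture on PECAM1 beads, LEC were gated on podoplanin and the reporter and split by surface LYVE1, high for cap LEC, intermediate for pre-col LEC and low or negative for col LEC, whereas BEC lacked all 3 markers. The labels call the arrays biological replicates without saying whether each is 1 mouse or a pool, so that the p-values below measure the spread between these samples. Values are log2 RMA values, a normalized array brightness on a log2 scale on which 1 unit is a doubling.

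Collagens are secreted or membrane-bound proteins whose chains wind around each other into a helix and assemble into fibrils, sheets or filaments. Endothelium rests on a basement membrane whose sheet-like scaffold is collagen IV, with collagens XV and XVIII at its borders and collagen VI filaments beneath it. Blood capillaries have a continuous basement membrane shared with pericytes, lymphatic capillaries a thin and discontinuous one, and lymphatic collecting vessels a fuller one with muscle cells around it. Fibril-forming collagens I, III and V make up most of the dermis around these vessels and are made chiefly by fibroblasts.

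The brightness of all rows had a median between 6.06 and 6.17 on the 12 arrays. A gene was tested if it lay above that median on at least 3 arrays, which 19723 genes did. Of the 43 collagens, 40 lay above it on every array, Col8a1 on 5, Col12a1 on 4 and Col10a1, the collagen of hypertrophic cartilage, on none. Col10a1 read between 5.50 and 5.81 and was not tested. Differences were tested with limma, a linear model with a shared estimate of variance, and a gene was called when its two-sided p-value, adjusted by the Benjamini-Hochberg method over all 19723 genes, was under 0.05.

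Of the lymphatic endothelial markers, 6 of 6 were called higher in LEC than in BEC, beside 12.1% of all genes tested. Of the blood endothelial markers, 6 of 7 were called lower, beside 10.6% of all genes tested. The sort itself used podoplanin (Pdpn), LYVE1 and the Prox1 reporter, so Pdpn, Lyve1 and Prox1 on the lymphatic list give no separate support for the labels. Other cells' transcripts also differed between arrays and accompany several results below. Mural cell genes mark the pericytes and smooth muscle around vessels. Of 12 such genes, 11 were called lower in LEC than in BEC, beside 10.6% of all genes tested. Their summed linear value was 8349 to 10594 on the BEC arrays against 1297 to 4527 on the LEC arrays. The highest LEC sum was on pre-col LEC replicate 1. Fibroblast genes were read from 10 of 12 listed genes, as Pdgfra and Fbn1 had no row of their own. Summed over these 10 genes, the linear value was 2179 to 2353 in cap LEC and 2226 to 4242 in pre-col LEC. It was 1865 to 2608 in col LEC and 1520 to 1869 in BEC. Without Thy1, which read higher in LEC than in BEC, the sum was 842 to 1066 in cap LEC and 924 to 3300 in pre-col LEC. It was then 796 to 1689 in col LEC and 1095 to 1526 in BEC. Where BEC stood among the groups thus depended on this 1 gene. In such bulk samples, fewer cells of a type and less RNA per cell cannot be told apart.

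In the comparison of the mean of the 3 LEC groups with BEC, 16 of the 42 tested collagens were called, 38.1%, beside 22.7% of all genes tested. Only 3 collagens were higher in LEC (12.1% of all genes were called higher): Col18a1, Col23a1 and Col4a5. The other 13 were lower in LEC (10.6% of all genes were called lower): Col4a1, Col4a2, Col4a3, Col15a1, Col6a1, Col6a2, Col6a3, Col8a1, Col12a1, Col5a2, Col5a3, Col17a1 and Col28a1. Col8a1 and Col12a1 passed the filter on dim genes only because their BEC arrays did. Of the 40 collagens above the median on every array, 3 were called higher and 11 lower, 35% in all. The median difference, LEC minus BEC, was -0.13 over the tested collagens and -0.02 over all genes tested.

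**Figure D1:**
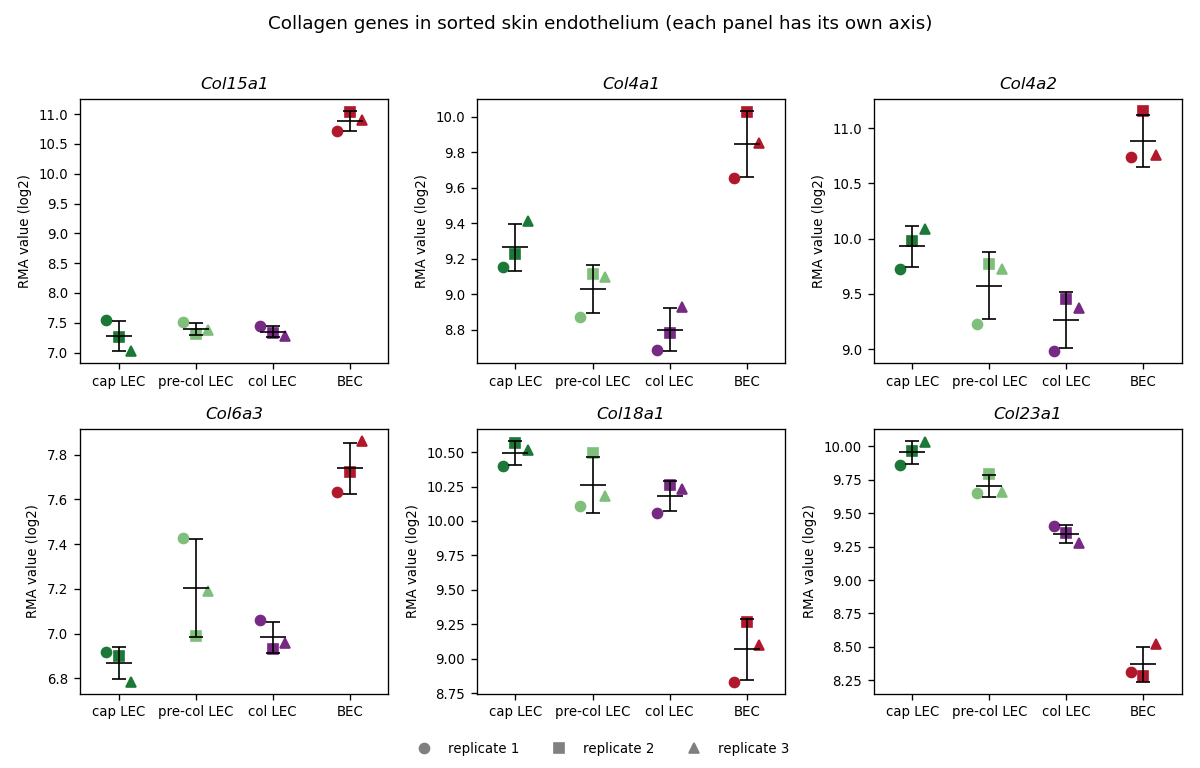
Level of the collagens in the 4 endothelial populations, each panel 1 gene with its own axis in log2 RMA value, points being single arrays (shape gives the replicate) and black bars the mean ± SD of 3 arrays. Col15a1, Col4a1 and Col4a2 are highest on the BEC arrays, whereas Col18a1 and Col23a1 are lowest there.

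The sequence that joins the basement membrane pair is shown first because Col4a1 and Col4a2 lay in the same group order below. The RefSeq gene starts on GRCm38.p6 face away from each other and overlap, so that Col4a1 is read from the minus strand and Col4a2 from the plus strand from the same 22 bases, chr8:11312805-11312826, which are 72.7% G or C. The plus strand is given 5′ to 3′.
Col4a1 and Col4a2 shared start: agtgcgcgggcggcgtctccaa
Other collagen genes also lie next to each other in RefSeq, including Col6a1 beside Col6a2, Col4a3 beside Col4a4, Col4a5 beside Col4a6 and Col3a1 beside Col5a2.

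Col4a1 and Col4a2 encode the chains of the collagen IV found in nearly every basement membrane. The Col4a1 row (TC0800001696.mm.1) read 9.15, 9.23 and 9.41 in cap LEC, 8.87, 9.11 and 9.10 in pre-col LEC, 8.69, 8.78 and 8.93 in col LEC and 9.66, 10.03 and 9.85 in BEC, in the order of replicates 1, 2 and 3. The Col4a2 row (TC0800000088.mm.1) read 9.73, 9.98 and 10.09 in cap LEC, 9.23, 9.77 and 9.73 in pre-col LEC, 8.98, 9.45 and 9.37 in col LEC and 10.74, 11.16 and 10.76 in BEC. In both genes the BEC arrays lay above every LEC array, and all cap LEC arrays lay above all col LEC arrays, with the pre-col LEC mean between them. The difference LEC minus BEC was -0.82 ± 0.09 (SE) for Col4a1, a 1.76-fold lower level (limma adjusted p = 4.04e-05), and -1.29 ± 0.14 for Col4a2, 2.45-fold lower (limma adjusted p = 2.96e-05).

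Within the lymphatic populations, col LEC minus cap LEC was -0.47 ± 0.12 for Col4a1 (limma adjusted p = 0.0785) and -0.66 ± 0.18 for Col4a2 (limma adjusted p = 0.106), so neither was called. With arrays weighted by their noise, an alternative setting, Col4a1 (-0.41, limma adjusted p = 0.0283) and Col4a2 (-0.62, limma adjusted p = 0.0312) were both called. Pre-col LEC minus cap LEC was -0.24 for Col4a1 and -0.35 for Col4a2, and col LEC minus pre-col LEC was -0.23 and -0.31, none of them called.

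The chains Col4a3, Col4a4, Col4a5 and Col4a6 form the collagen IV of specialised basement membranes such as those of the kidney and of the epidermis and smooth muscle. Col4a3 (TC0100000706.mm.1) read between 7.08 and 7.42 on the LEC arrays and between 7.51 and 7.65 on the BEC arrays, without overlap, and was called lower in LEC by a small amount (-0.28 ± 0.07, limma adjusted p = 0.00819). Col4a5 (TC0X00001394.mm.1) went the other way, from 7.28 to 7.46 on the LEC arrays and from 7.03 to 7.19 on the BEC arrays (+0.28 ± 0.06, limma adjusted p = 0.00716). Col4a4 (-0.07, limma adjusted p = 0.471) and Col4a6 (+0.01, limma adjusted p = 0.919), the neighbours of Col4a3 and Col4a5, were not called.

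The multiplexins Col15a1 and Col18a1 encode collagens XV and XVIII, which carry sugar chains and bind the basement membrane, and the end fragment of collagen XVIII is known as endostatin. Col15a1 (TC0400000518.mm.1) read 7.54, 7.26 and 7.03 in cap LEC, 7.51, 7.31 and 7.38 in pre-col LEC, 7.45, 7.33 and 7.27 in col LEC and 10.71, 11.04 and 10.91 in BEC. Every BEC array was more than 3 units above every LEC array, and the 3 LEC groups overlapped, with means of 7.27 ± 0.26, 7.40 ± 0.10 and 7.35 ± 0.09 (SD, n = 3) for cap, pre-col and col LEC. The difference LEC minus BEC was -3.54 ± 0.10 (SE), 11.7-fold lower in LEC (limma adjusted p = 3.44e-10), the largest among the collagens, and it stayed between -3.63 and -3.47 when any 1 array was left out.

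Col18a1 (TC1000002418.mm.1) read 10.40, 10.57 and 10.52 in cap LEC, 10.11, 10.49 and 10.18 in pre-col LEC, 10.06, 10.26 and 10.23 in col LEC and 8.83, 9.27 and 9.10 in BEC. Here all LEC arrays lay above all BEC arrays, the reverse of Col15a1. LEC minus BEC was +1.25 ± 0.10, 2.37-fold higher in LEC (limma adjusted p = 2.09e-06). Cap LEC arrays were all above col LEC arrays, and col LEC minus cap LEC was -0.31 ± 0.13, which was not called (limma adjusted p = 0.388).

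Col23a1 encodes collagen XXIII, a collagen anchored in the cell membrane. Its row (TC1100000566.mm.1) read 9.87, 9.97 and 10.03 in cap LEC, 9.65, 9.80 and 9.66 in pre-col LEC, 9.41, 9.35 and 9.27 in col LEC and 8.31, 8.28 and 8.52 in BEC. No 2 groups overlapped, and the order was cap LEC, pre-col LEC, col LEC, BEC, with means of 9.96 ± 0.08, 9.70 ± 0.08, 9.34 ± 0.07 and 8.37 ± 0.13 (SD, n = 3). LEC minus BEC was +1.30 ± 0.07 (SE), 2.46-fold higher in LEC (limma adjusted p = 5.01e-08).

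Col23a1 was the only collagen called within the lymphatic populations, 1 of 42 or 2.38% in col LEC minus cap LEC, beside 1.65% of all genes tested (0.989% lower and 0.659% higher), a share near the background. Its level fell by 0.61 from cap LEC to col LEC, with an SE of 0.09, a 1.53-fold difference (limma adjusted p = 0.0036). When any 1 array was left out the difference stayed between -0.66 and -0.57 and the adjusted p was at most 0.0225. The separate steps, -0.25 from cap LEC to pre-col LEC (limma adjusted p = 0.737) and -0.36 from pre-col LEC to col LEC (limma adjusted p = 0.2), were not called, and the second was called with weighted arrays (-0.37, limma adjusted p = 0.0305).

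The regions before the starts of Col15a1, Col18a1 and Col23a1 are printed because these genes had the clearest differences between LEC and BEC, in opposite directions. Each line holds the 250 bases upstream of a RefSeq start on GRCm38.p6, 5′ to 3′ on the gene's strand, with capitals for matches on either strand to the CCAAT box and to the GC box, whose letters are GGGCGG. The windows are chr4:47207762-47208011 on the plus strand for Col15a1, chr10:77166531-77166780 on the minus strand for the upstream start of Col18a1, and chr11:51289670-51289919 on the plus strand for Col23a1.
Col15a1: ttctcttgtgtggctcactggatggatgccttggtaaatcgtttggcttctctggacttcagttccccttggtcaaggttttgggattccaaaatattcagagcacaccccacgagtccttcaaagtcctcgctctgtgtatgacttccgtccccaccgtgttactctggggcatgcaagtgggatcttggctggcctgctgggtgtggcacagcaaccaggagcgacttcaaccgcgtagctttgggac
Col18a1: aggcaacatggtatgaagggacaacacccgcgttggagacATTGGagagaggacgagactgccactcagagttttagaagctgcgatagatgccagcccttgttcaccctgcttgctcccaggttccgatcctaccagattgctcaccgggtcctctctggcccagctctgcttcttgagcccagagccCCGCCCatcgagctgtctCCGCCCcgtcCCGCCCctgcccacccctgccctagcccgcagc
Col23a1: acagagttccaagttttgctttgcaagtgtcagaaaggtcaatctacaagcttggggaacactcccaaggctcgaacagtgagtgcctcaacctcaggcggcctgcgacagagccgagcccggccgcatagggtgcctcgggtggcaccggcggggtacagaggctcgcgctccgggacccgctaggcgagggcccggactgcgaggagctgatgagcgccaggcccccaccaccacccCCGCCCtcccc
The Col15a1 window held no match to either box, nor to the TATA box (TATAAA) or the core of ETS sites (the letters CCGGAA), on either strand. The Col18a1 window held 1 CCAAT box and 3 GC boxes, and the Col23a1 window 1 GC box. A second Col18a1 window, at its downstream start, chr10:77113706-77113955, held none of the 4. RefSeq windows were found for 34 of the 43 collagens, 37 windows in all, of which 21 (56.8%) held a GC box, 12 a CCAAT box, 5 a TATA box and 0 an ETS core. Of all 32851 promoter windows of that length, 32.7% held a GC box, 33.8% a CCAAT box, 12.4% a TATA box and 12% an ETS core. These are matches of letters in a window, with no binding measured.

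Collagen VI forms beaded filaments next to basement membranes, from chains encoded by Col6a1, Col6a2 and Col6a3. Col6a3 (TC0100002789.mm.1) read 6.92, 6.90 and 6.79 in cap LEC, 7.43, 6.99 and 7.19 in pre-col LEC, 7.06, 6.93 and 6.96 in col LEC and 7.63, 7.72 and 7.86 in BEC. Col6a1 (TC1000002406.mm.1) lay between 7.07 and 7.58 on the LEC arrays and between 7.91 and 8.03 on the BEC arrays, and Col6a2 (TC1000002405.mm.1) between 7.43 and 7.85 and between 8.12 and 8.19. In all 3 genes every BEC array lay above every LEC array, and the highest LEC array was pre-col LEC replicate 1.

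The 3 genes were called lower in LEC, by -0.72 ± 0.09 for Col6a3 (1.65-fold, limma adjusted p = 6.63e-05), -0.65 ± 0.09 for Col6a1 (1.57-fold, limma adjusted p = 0.000114) and -0.53 ± 0.08 for Col6a2 (1.44-fold, limma adjusted p = 0.000374). The later-described chains Col6a4 (-0.11), Col6a5 (-0.13) and Col6a6 (-0.06) were not called. Pdgfrb, a gene of the mural list that encodes a receptor found on pericytes, read 10.50 to 10.98 on BEC arrays and 6.61 to 8.93 on LEC arrays. Mural transcripts were thus higher in BEC, as were Col4a1, Col4a2, Col15a1 and the 3 collagen VI genes. Within LEC they did not all share an order. Pre-col LEC replicate 1 had the highest mural sum (4527) and the highest collagen VI values, but the lowest Col4a1 (8.87) and Col4a2 (9.23) of its group. The part of mural transcripts in these differences was not tested.

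**Figure D2:**
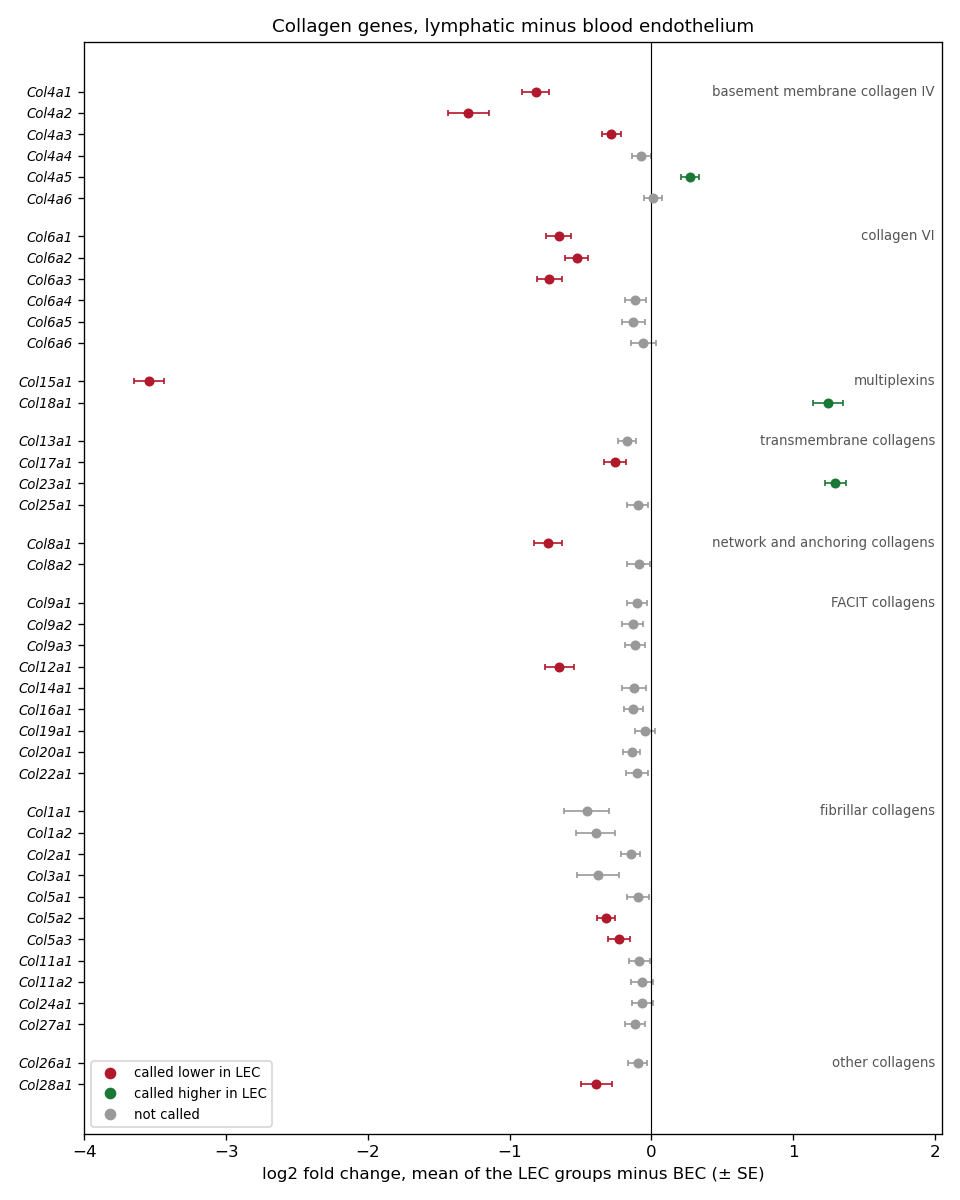
Difference LEC minus BEC in log2 RMA value for the 42 tested collagens, with the SE of the fit, grouped by collagen family. Col15a1 lies at -3.54, Col18a1 at 1.25 and Col23a1 at 1.30, and most others lie close below 0.

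Among the dim rows, Col8a1 and Col12a1 were also higher in BEC. Col8a1, a short-chain collagen made by vascular cells (TC1600001764.mm.1), read 5.60, 5.64 and 5.76 in cap LEC, 5.91, 5.75 and 6.14 in pre-col LEC, 6.13, 6.15 and 5.98 in col LEC and 6.48, 6.55 and 6.86 in BEC. Its difference from BEC was -0.73 ± 0.10 (1.66-fold). Within LEC its col LEC arrays all lay above its cap LEC arrays (+0.42 ± 0.12, limma adjusted p = 0.138, not called). With arrays weighted by their noise this difference was called (+0.42, limma adjusted p = 0.0401). Col12a1, a collagen that decorates fibrils (TC0900002735.mm.1), read 5.73 to 6.21 on LEC arrays and 6.29 to 6.74 on BEC arrays (-0.65 ± 0.10, 1.57-fold). As both rows passed the filter through BEC, their differences from BEC are given here as a description without a p-value. RMA also compresses differences of weak signals, so these sizes are uncertain.

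Among the 11 fibril-forming collagens, 2 were called lower in LEC and none higher. In either direction this is 18.2% beside 22.7% of all genes, a share near the background, whereas 10.6% of all genes were called lower. All 11 differences lay below 0, with a median of -0.15. Col5a2, a chain of the collagen V that starts collagen I fibrils (TC0100002278.mm.1), read 7.47 to 7.66 on LEC arrays and 7.84 to 7.97 on BEC arrays (-0.32 ± 0.06, limma adjusted p = 0.00196). Col5a3 was called by a narrow margin (-0.23 ± 0.08, limma adjusted p = 0.0491) and was not called in 9 of 12 fits that each left out 1 array, with an adjusted p of 0.242 without BEC replicate 3. It kept its call without replicate 1 of col LEC, pre-col LEC or BEC. Col5a1 was not called against BEC (-0.09, limma adjusted p = 0.407), and its col LEC minus cap LEC difference was +0.29 ± 0.09 (limma adjusted p = 0.221).

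Col1a1 and Col1a2 encode the chains of collagen I, the main fibril of the dermis, and Col3a1 the collagen III that accompanies it. Col1a1 (TC1100001448.mm.1) read 8.18, 8.18 and 7.97 in cap LEC, 9.02, 8.23 and 8.27 in pre-col LEC, 8.59, 8.13 and 8.14 in col LEC and 8.68, 8.84 and 8.75 in BEC. Col1a2 (TC0600000010.mm.1) read 7.57, 7.56 and 7.38, then 8.33, 7.73 and 7.63, then 7.95, 7.57 and 7.54, then 8.02, 8.11 and 8.13 in the same order. Col3a1 (TC0100000343.mm.1) read 7.64, 7.54 and 7.38 in cap LEC, 8.32, 7.55 and 7.60 in pre-col LEC, 7.72, 7.53 and 7.51 in col LEC and 7.85, 8.22 and 7.99 in BEC. In all 3 genes pre-col LEC replicate 1 was the highest of the 12 arrays, col LEC replicate 1 was the highest of its group, and every other LEC array lay below every BEC array.

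The same arrays stood out for fibroblast genes. Decorin (Dcn), a proteoglycan of fibroblasts, read 10.38 on pre-col LEC replicate 1 and 9.54 on col LEC replicate 1, against 6.05 to 7.58 on the other LEC arrays and 5.67 to 5.82 in BEC. Lumican (Lum) read 7.42 and 5.86 on those 2 arrays and 3.85 to 4.93 on the others. The smooth muscle actin gene Acta2 read 10.21 on pre-col LEC replicate 1 and 7.44 on col LEC replicate 1, so a mural transcript was high on the first of them as well. The list did not move as one between LEC and BEC. Of its 8 tested genes, Thy1 was called higher in LEC (+1.72, limma adjusted p = 6.01e-07) and Dpt, dermatopontin, lower (-1.92, limma adjusted p = 0.0453), while Dcn (+1.68) and Postn, periostin (-0.68), were among the 6 not called. Of all genes tested, 12.1% were called higher and 10.6% lower, so these counts are near the background. Dpt read 7.89 to 8.97 in BEC, 9.20 on pre-col LEC replicate 1 and 5.72 to 7.54 on the other LEC arrays.

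With all 12 arrays weighted equally, none of the 3 genes was called in LEC minus BEC: the difference was -0.46 ± 0.16 for Col1a1 (limma adjusted p = 0.0553), -0.39 ± 0.14 for Col1a2 (limma adjusted p = 0.0585) and -0.38 ± 0.15 for Col3a1 (limma adjusted p = 0.0892). With arrays weighted by their noise all 3 were called lower in LEC, Col1a1 by -0.54 (limma adjusted p = 0.0335), Col1a2 by -0.45 (limma adjusted p = 0.0461) and Col3a1 by -0.50 (limma adjusted p = 0.0322). Without pre-col LEC replicate 1 all 3 were called lower in LEC, Col1a1 by -0.54 (limma adjusted p = 0.00252), Col1a2 by -0.47 (limma adjusted p = 0.00421) and Col3a1 by -0.46 (limma adjusted p = 0.00376). Leaving out col LEC replicate 1 alone gave -0.51 for Col1a1 (limma adjusted p = 0.0301) and -0.44 for Col1a2 (limma adjusted p = 0.0312). Without both of these arrays, which have the highest Dcn, the differences were -0.59, -0.51 and -0.48, a setting chosen after seeing the data. These 2 arrays are also the highest LEC arrays for all 3 genes. Leaving out either or both therefore lowers the LEC mean by construction, and the fits without them are no separate support for a difference from BEC. The part of fibroblast and mural transcripts in the levels of collagens I and III was not tested.

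**Figure D3:**
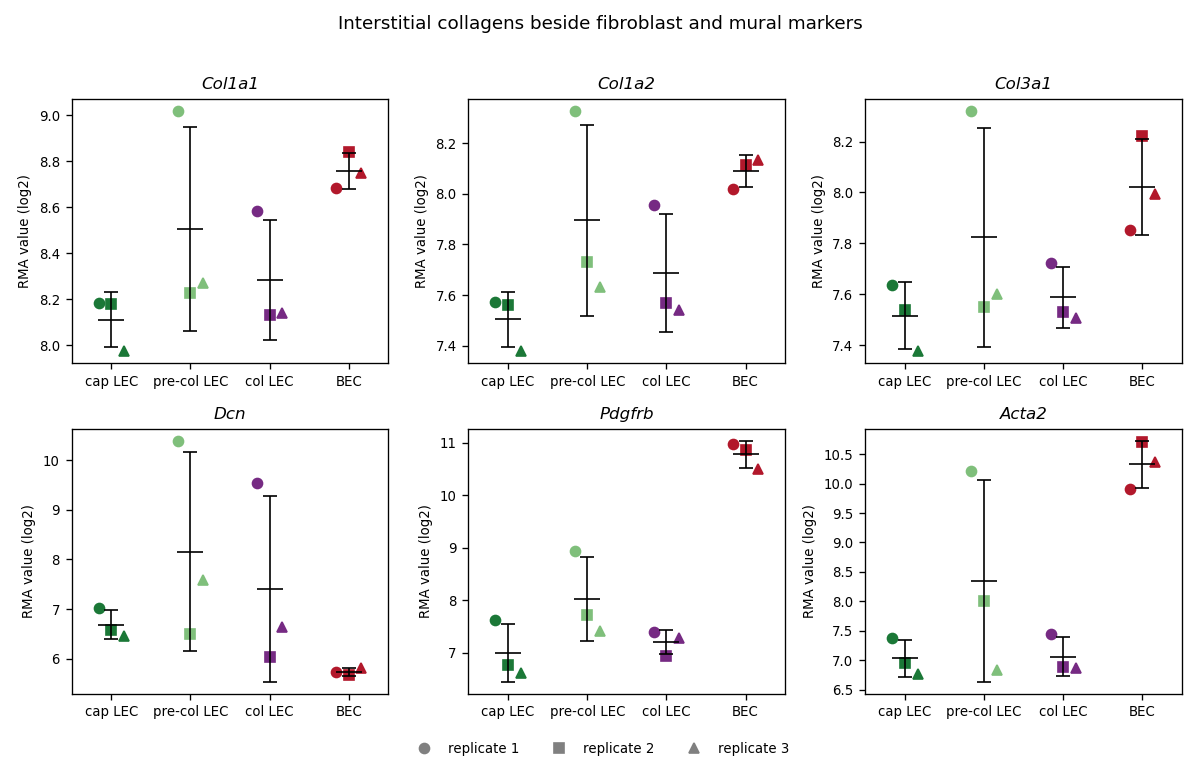
Levels of Col1a1, Col1a2 and Col3a1 beside the fibroblast gene Dcn and the mural genes Pdgfrb and Acta2 in log2 RMA value, points being single arrays (shape gives the replicate) and black bars the mean ± SD of 3 arrays. Pre-col LEC replicate 1 is the highest array for the 3 collagens and for Dcn.

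No collagen was called in pre-col LEC minus cap LEC (0 of 42, beside 0% of all genes tested) or in col LEC minus pre-col LEC (0 of 42, beside 0.304% of all genes tested). At an unadjusted limma p under 0.05 the counts were 4 and 1, against 6.4% and 5.85% of all genes tested. The 4 in the first comparison were Col1a2 (+0.39), Col6a3 (+0.34), Col8a1 (+0.27) and Col23a1 (-0.25), and the 1 in the second was Col23a1. The values of Col1a1 (+0.39 ± 0.19), Col1a2 and Col3a1 (+0.31) in pre-col LEC minus cap LEC rest largely on replicate 1 of pre-col LEC, since the lowest values when 1 array was left out were 0.14, 0.18 and 0.06.

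Col17a1 and Col28a1 were the remaining calls. Col17a1, a membrane collagen of the hemidesmosomes of epidermal keratinocytes, read 7.08 to 7.34 on LEC arrays and 7.32, 7.53 and 7.68 in BEC (-0.26 ± 0.08, limma adjusted p = 0.032). It was not called in 6 of 12 fits that left out 1 array, those without replicate 2 or 3 of col LEC, pre-col LEC or BEC, with an adjusted p of 0.172 without BEC replicate 3. The keratinocyte keratins Krt5 (-0.44, limma adjusted p = 0.0226) and Krt14 (-0.41, limma adjusted p = 0.0187) were also called lower in LEC. They are 2 of the 4 tested genes of that list, and 10.6% of all genes were called lower. Their part in the Col17a1 value was not tested.

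Col28a1, which encodes a collagen known from peripheral nerve, read 6.52 to 6.92 on LEC arrays and 6.77, 7.20 and 7.21 in BEC (-0.39 ± 0.11, limma adjusted p = 0.0239). The call was lost without BEC replicate 2 (limma adjusted p = 0.108) and without BEC replicate 3 (limma adjusted p = 0.134). Of the 3 tested Schwann cell genes none was called (limma, and 0 at an unadjusted p under 0.05). Of all genes tested, 22.7% were called and 34% had an unadjusted p under 0.05, so 3 genes are too few to read. Cdh19, too dim to be tested, read 3.35 to 3.65 on all 12 arrays. The part of nerve transcripts in the Col28a1 value was not tested.

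The 26 tested collagens that were not called in LEC minus BEC varied little. Their group means spanned 0.06 to 0.65, with a median span of 0.18, and 23 of the 26 spanned under 0.3, all but Col1a1, Col1a2 and Col3a1. These 23 include the cartilage collagens Col2a1, Col9a1, Col9a2, Col9a3, Col11a1 and Col11a2, the fibril-associated Col14a1, Col16a1, Col19a1, Col20a1 and Col22a1, and the membrane collagens Col13a1 and Col25a1. Col2a1, for example, read between 7.60 and 8.03 on the 12 arrays and Col14a1 between 6.09 and 6.55. Ear skin lies on cartilage. Of 8 tested cartilage cell genes 2 were called higher in LEC, beside 12.1% of all genes: Comp (+1.39, limma adjusted p = 3.2e-08) and Hapln1 (+0.49, limma adjusted p = 0.0151). The list did not move as one, with 3 genes above 0, 5 below and a median of -0.02. The cartilage proteoglycan gene Acan read 6.31 to 6.76 with no call (-0.11).

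These low-varying collagens shared an array pattern. Among the 23, the highest array was BEC replicate 3 in 20 and the lowest was cap LEC replicate 3 in 22. Of all genes tested, 25.2% were highest on BEC replicate 3 and 21.1% lowest on cap LEC replicate 3. Over the 42 tested collagens, the highest group mean was that of BEC in 37 and the lowest that of cap LEC in 35. For group means the share over all genes tested was not taken, so these counts cannot be set against a background. The part of BEC replicate 3 and cap LEC replicate 3 in those counts was not tested.

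Genes that act on collagens were read from lists of enzymes, receptors and proteases. For folding and secretion, 20 of 23 listed genes were tested, of which 3 were called higher and 5 lower in LEC (median 0.07), beside 12.1% and 10.6% of all genes, so that the number higher was near the background. The lower genes include P3h2, a prolyl hydroxylase that acts on collagen IV (-1.30 ± 0.17, 2.46-fold, limma adjusted p = 0.000119), Colgalt2, which adds galactose to collagen (-1.15, limma adjusted p = 0.000242), and Creb3l1, a transcription factor of collagen genes (-0.64, limma adjusted p = 3.46e-05). P3h2 read 8.97, 9.03 and 9.69 in BEC and 7.46 to 8.25 on the LEC arrays, without overlap.

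Of 11 tested genes of 14 listed for processing and crosslinking, 2 were called higher and 3 lower in LEC, beside 12.1% and 10.6% of all genes. One of the lower genes, Lox, which crosslinks fibrils, passed the filter through the 3 BEC arrays alone. Without it, 2 of 10 were higher and 2 lower (median -0.11). Pxdn encodes peroxidasin, the enzyme that crosslinks collagen IV. It read 10.64, 10.46 and 10.55 in cap LEC, 10.19, 10.53 and 10.28 in pre-col LEC, 9.73, 10.08 and 10.08 in col LEC and 11.44, 11.54 and 11.32 in BEC. Its group order, BEC, cap LEC, pre-col LEC, col LEC, is that of Col4a1 and Col4a2, and it was lower in LEC than in BEC (-1.15 ± 0.10, 2.23-fold, limma adjusted p = 2.33e-06). Between col LEC and cap LEC it was called (-0.59 ± 0.12, limma adjusted p = 0.029), but not without any 1 of the 6 arrays of these groups, with an adjusted p from 0.0525 without col LEC replicate 2 to 0.115 without cap LEC replicate 1.

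Of the 4 tested proteases that trim procollagen ends, Tll1 (+1.16, limma adjusted p = 0.000497) and Bmp1 (+0.81, limma adjusted p = 0.000139) were higher in LEC, and Tll2 (-0.05, limma adjusted p = 0.596) and Adamts14 (-0.19, limma adjusted p = 0.0747) were not called. Pcolce, an enhancer of proteases of the Bmp1 type, was lower (-1.27, 2.41-fold, limma adjusted p = 1.46e-05), with 8.43, 9.01 and 8.78 in BEC and 7.21 to 7.89 on the LEC arrays. Plod1, a lysyl hydroxylase, was lowest in col LEC, and its col LEC minus cap LEC difference of -0.53 was just short of a call (limma adjusted p = 0.0533).

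Among 10 tested collagen receptors of 14 listed, 3 were called higher and 3 lower in LEC, beside 12.1% and 10.6% of all genes. Without Itga2, described below, 3 of 9 were higher and 2 lower (median -0.11). Adgrg1, an adhesion receptor that binds collagen III, read 12.22, 12.17 and 12.07 in BEC and 8.32 to 8.85 on the LEC arrays (-3.52 ± 0.10, 11.5-fold, limma adjusted p = 3.44e-10). Ddr2, a kinase receptor of fibrillar collagens, read 8.11 to 8.19 in BEC and 5.91 to 6.71 on the LEC arrays (-1.90, limma adjusted p = 1.82e-09). Itga2, a subunit of a collagen-binding integrin, was at the dim end on the LEC arrays, at 4.92 to 5.08, and read 6.17 to 7.07 in BEC. It passed the filter on dim genes through the 3 BEC arrays alone, so its values are given as a description without a test.

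Antxr1 and Antxr2, receptors of collagen VI and other matrix proteins that also bind anthrax toxin, went the other way and also differed between lymphatic groups. Antxr1 read 10.77, 10.67 and 10.84 in cap LEC, 10.34, 10.30 and 10.43 in pre-col LEC, 9.45, 9.65 and 9.70 in col LEC and 8.95, 8.58 and 8.61 in BEC. Antxr2 read 10.13, 9.39 and 9.49 in cap LEC, 9.09, 8.47 and 8.82 in pre-col LEC, 7.14, 7.44 and 6.93 in col LEC and 6.70, 7.12 and 7.22 in BEC. In both genes cap LEC lay above pre-col LEC and pre-col LEC above col LEC without overlap, and for Antxr2 col LEC overlapped BEC.

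Antxr1 was lower in col LEC than in cap LEC by -1.16 ± 0.11 (2.23-fold, limma adjusted p = 0.000174) and Antxr2 by -2.50 ± 0.22 (5.65-fold, limma adjusted p = 0.000122). Against pre-col LEC, col LEC was lower by -0.76 for Antxr1 (limma adjusted p = 0.0122) and by -1.62 for Antxr2 (limma adjusted p = 0.0098). Pre-col LEC minus cap LEC was -0.40 and -0.88, neither of them called (limma adjusted p = 0.53 and 0.478). Both calls in col LEC minus pre-col LEC were lost without col LEC replicate 1 (limma adjusted p = 0.0661 for Antxr1 and 0.056 for Antxr2). They were also lost in a fit of only the groups compared (limma adjusted p = 0.0707 for each). That of Antxr1 was lost without pre-col LEC replicate 3 as well (limma adjusted p = 0.0662).

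Of 7 tested genes of 13 listed for collagen breakdown, 4 were called higher in LEC and none lower (median 0.54), beside 12.1% and 10.6% of all genes. Mmp14, a membrane protease that cleaves fibrillar collagen and activates Mmp2, read 9.90 to 10.45 on the LEC arrays and 8.62 to 9.21 in BEC (+1.20, 2.31-fold, limma adjusted p = 3.28e-05). The inhibitors Timp2 (+1.05, limma adjusted p = 9.18e-08) and Timp3 (+0.64, limma adjusted p = 0.000753) were higher too. Mmp2, a gelatinase that also cleaves collagen IV, read 9.61, 9.88 and 9.77 in cap LEC, 9.53, 9.58 and 9.85 in pre-col LEC, 9.02, 8.82 and 9.06 in col LEC and 8.78, 9.13 and 8.84 in BEC.

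The col LEC arrays of Mmp2 overlapped BEC and lay below all cap and pre-col LEC arrays. Col LEC minus cap LEC was -0.79 ± 0.12 for Mmp2 (1.73-fold, limma adjusted p = 0.00605), and LEC minus BEC was +0.54 (limma adjusted p = 0.00173). Col LEC minus pre-col LEC was -0.69 (limma adjusted p = 0.046), a call kept in 2 of 12 fits that left out 1 array, those without BEC replicate 1 or 2, with an adjusted p up to 0.195 without col LEC replicate 2. In col LEC minus cap LEC the 4 lists together held 4 calls among 48 tested genes (8.33%, beside 1.65% of all genes), 1 in processing (Pxdn), 2 in receptors (Antxr1 and Antxr2) and 1 in breakdown (Mmp2), all lower in col LEC as Col23a1 was. As the lists were chosen with earlier results of these data known, this share describes the lists and is no test of them.

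**Figure D4:**
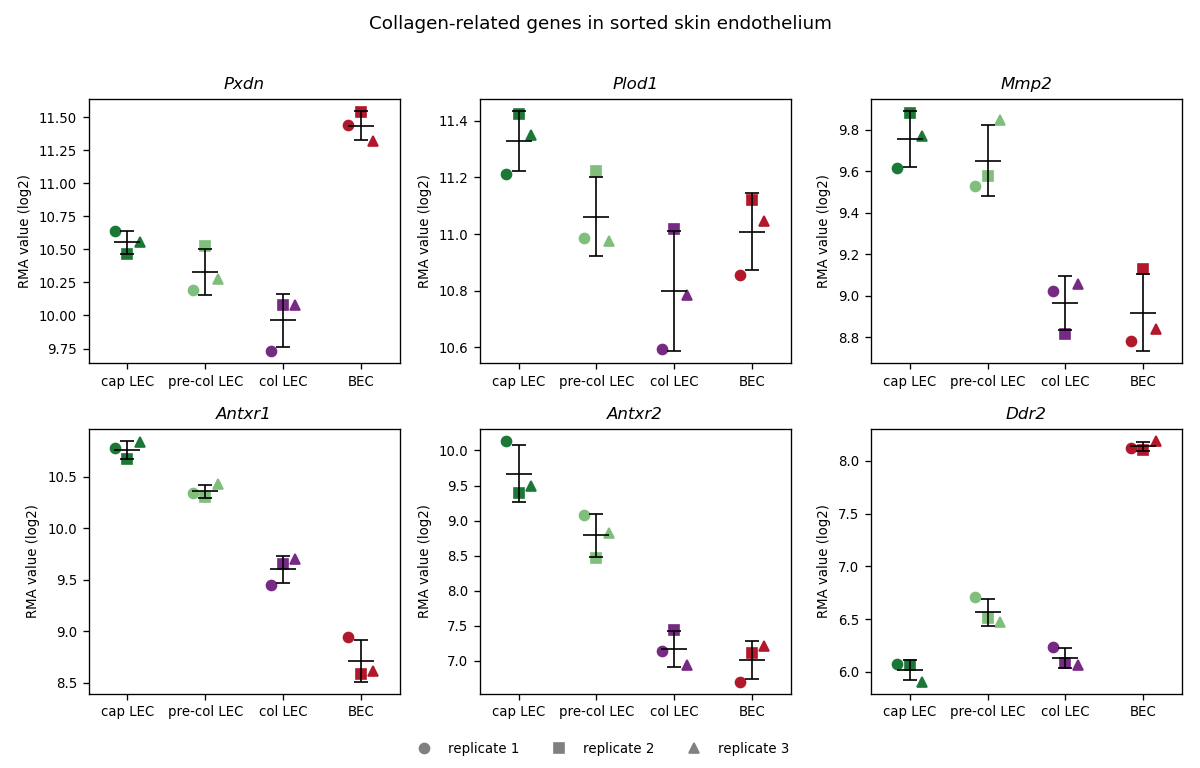
Levels of 6 collagen-related genes in log2 RMA value in the 4 populations, points being single arrays (shape gives the replicate) and black bars the mean ± SD of 3 arrays. Pxdn and Ddr2 are highest on the BEC arrays, and Antxr1, Antxr2, Mmp2 and Plod1 are highest on average in cap LEC.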

How the data were processed

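The values are log2 transcript cluster values that the authors deposited for 12 arrays after RMA, per the submitters' processing notes (the scale is inferred from their range). RMA subtracts background, normalizes arrays to each other and summarises probes robustly, so differences of weak signals are compressed and a change in total RNA per cell cannot be seen. Per the labels' protocols, amplification started from 500 pg of RNA. For the RMA software, its version and the annotation build, nothing is given in the sources used here, and no detection flags were used. For arrays, the number of replicates limits the precision: the median within-group SD was 0.14.

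Of 72688 rows, 30604 had 1 gene symbol and 2146 several. Rows naming several genes were not used unless the names meant 1 gene, as for Col6a4. Symbols were updated through Entrez identifiers with a RefSeq table (GRCm38.p6). Each gene was represented by its brightest row.

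Group means were fitted to all 12 arrays with limma 3.58.1 in R 4.3.3 (lmFit, eBayes), with 8 residual and 3.63 prior degrees of freedom, and p-values were adjusted over 19723 genes. Tests were two-sided. Errors of differences are SE and errors of levels are SD. The code was tested on simulated data. Alternatives were cyclic loess, the mean of a gene's rows, no filter and a stricter filter on dim genes, array weights, an intensity trend with a robust prior, only the groups compared, a replicate block, leaving out each array, and leaving out the 2 arrays with the highest Dcn, the last chosen after seeing the data.

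The collagens and the lists of related and marker genes were chosen with earlier results of these data known. Named collagens are those called in any comparison, the 10 with the largest span of group means among the others, and further chains of the same types, with other members named in groups; of each related list, up to 4 called genes with the largest change per comparison, or the 2 with the smallest p where none was called. Motifs were searched on both strands in RefSeq promoter windows.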

Additional observations from a re-analysis of the deposited data

How the results depend on the processing

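In LEC minus BEC, 13 to 19 collagens were called when each array was left out in turn, 13 without BEC replicate 2 or BEC replicate 3 and 19 without pre-col LEC replicate 1, and 15 to 18 under the other settings, with 3 higher in LEC in every setting run. In col LEC minus cap LEC the count was 4 with array weights, 3 with the replicate block and 1 under the other settings and each array left out (1 to 1). In col LEC minus pre-col LEC it was 1 with array weights and 0 otherwise (0 to 0 with an array left out), and in pre-col LEC minus cap LEC it was 0 in every setting run. Of 1498 recomputed values of single genes, 1414 kept their direction and side of the threshold, 53 lost a call, 31 gained one and 0 changed direction. The median difference over all genes was at most 0.03 in size in the main fit and at most 0.005 under cyclic loess, over the 4 comparisons.

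The replicate numbers were not taken to pair the samples, because not every same-numbered pair correlated: 7 of 18 same-numbered pairs of samples had a correlation of their deviations over 0.1, with a range of -0.095 to 0.209 and a median of 0.092, against 2 of 36 differently numbered pairs and a median of -0.036. Of the 12 samples, 8 correlated best with a sample of their own number, a hint from the data and not from the design. With the replicate block, Col4a1 (limma adjusted p = 0.0285) and Col4a2 (limma adjusted p = 0.0131) were called in col LEC minus cap LEC beside Col23a1, and 16 collagens were called in LEC minus BEC, with Col1a1 (limma adjusted p = 0.0309) and Col1a2 (limma adjusted p = 0.0335) gained and Col5a3 and Col17a1 lost. A second-brightest row could not be tried because each collagen has 1 row. With 3 arrays per group and no detection flags, small differences of dim rows such as Col8a1 and Col12a1 are limited by array noise and by compression.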
